A study of Drosophila melanogaster with 51 samples.

Results

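The Hippo and Fat growth control genes are 8 genes of Drosophila melanogaster that set the size of the wing: ds, ft, fj, ex, hpo, wts, yki and sd. They were taken by symbol from the RefSeq gene table, where they are 8 of 17807 genes on the major chromosomes, and every HP1 or H3K9me3 peak in their bodies or within 10 kb of either gene end was collected. The 2 peak lists held 12 HP1 peaks and 0 H3K9me3 peaks at these genes, of 1435 and 2245 peaks in all. The genes were proposed with these peaks in view, so the counts below describe them and carry no test.

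In this pathway the cadherin Dachsous on one cell binds the cadherin Fat on its neighbour, and the Golgi kinase Four-jointed tunes that binding. Fat and the membrane scaffold Expanded feed into a kinase cascade in which Hippo activates Warts. Warts keeps the coactivator Yorkie out of the nucleus, and nuclear Yorkie acts with the DNA-binding protein Scalloped to switch on growth and survival genes, ex among them. HP1a binds methylated H3K9 through its chromodomain and is best known from pericentric heterochromatin, although it also occurs on euchromatic chromosome arms.

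The study used CUT&RUN, in which an antibody-guided nuclease cuts out the bound chromatin for sequencing, on wing imaginal discs of female wandering third-instar larvae kept at 25 °C, with at least 20 discs in each of 51 libraries. The names in the HP1 list read ywdf, sup and merge, those in the H3K9me3 list HWT (2047 peaks) or ywdf (198 peaks) with pel, and those in a further list of 500 background regions yw, gfp and pel. HWT larvae lack the endogenous histone cluster on both homologues (∆HisC), carry the replacement array H3.2HWT, and were picked by fluorescence that the twi-Gal4 and UAS-2xEYFP parents provide. The background libraries are titled yw, whereas their genotype label reads GFP-HP1a/+, and what ywdf stands for is not given in the sources used here. Other genotypes of the series, namely K9R, HP1a-control, HP1a-chromo and the tagged HP1a lines, have no list of their own here, so genotypes were not compared. The lists pool or select libraries, so no value has a replicate spread and depth per library is unknown. Peaks carry no expression values, so the tissue label could not be checked against marker genes, and a whole disc mixes cell types.

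HP1 peaks lay at 4 of the 8 genes, and the others had none within 10 kb. The body of ex, ft and sd held an HP1 peak, which is 3 of 8 genes where 2.48% of the 13631 protein-coding genes of the chromosome arms did. With the flanks of 10 kb the count was 4 of 8, where 10.7% of arm genes had a peak. The gene added was yki, the 1 member with HP1 in the flank and not the body, as were 8.27% of arm genes. These shares stand beside the counts as background only, because the same peaks were known when the genes were proposed.

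The share of arm genes with HP1 differed by length of the body, and the part of length in the members' counts was not tested. Among arm genes of 20 kb or more 13.2% had an HP1 peak in the body, and 2 of the 3 members of that length did, ft and sd but not ds. From 5 to 20 kb the share was 5.54%, with ex holding a peak and wts none. Under 5 kb it was 0.785%, and fj, hpo and yki had none in the body. With flanks the shares rose to 21.1%, 14.6% and 8.92% in the same order of length.

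**Figure D1:**
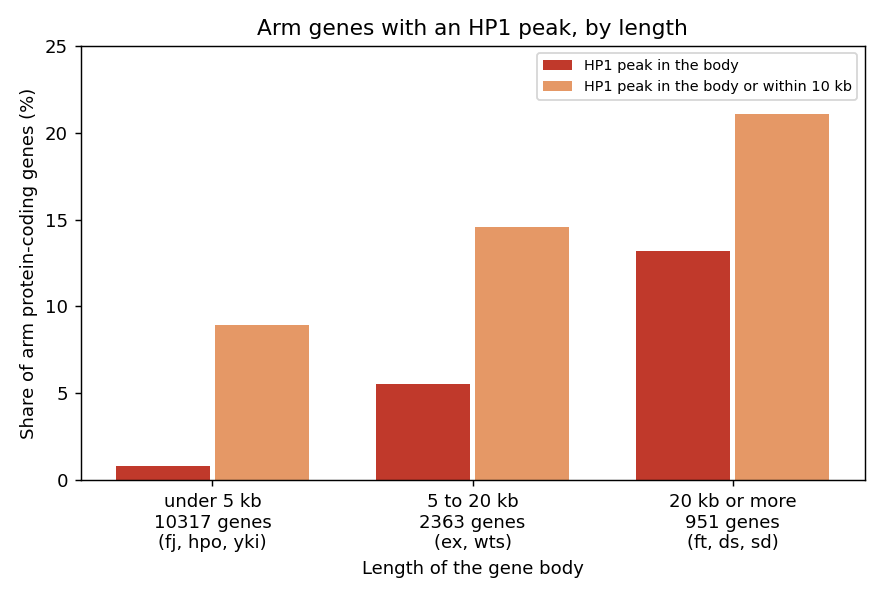
Share of arm protein-coding genes (vertical axis, percent) with a listed HP1 peak in the body (dark bars) or in the body and 10 kb flanks (light bars), by length of the gene body (horizontal axis, with the members of each class in brackets). The share in the body rose from 0.785% under 5 kb to 13.2% at 20 kb or more.

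The map of peaks around each gene places them by distance from the gene end with the lower coordinate. The RefSeq table gives no strand, so the ends are called lower and upper and not start and stop.

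**Figure D2:**
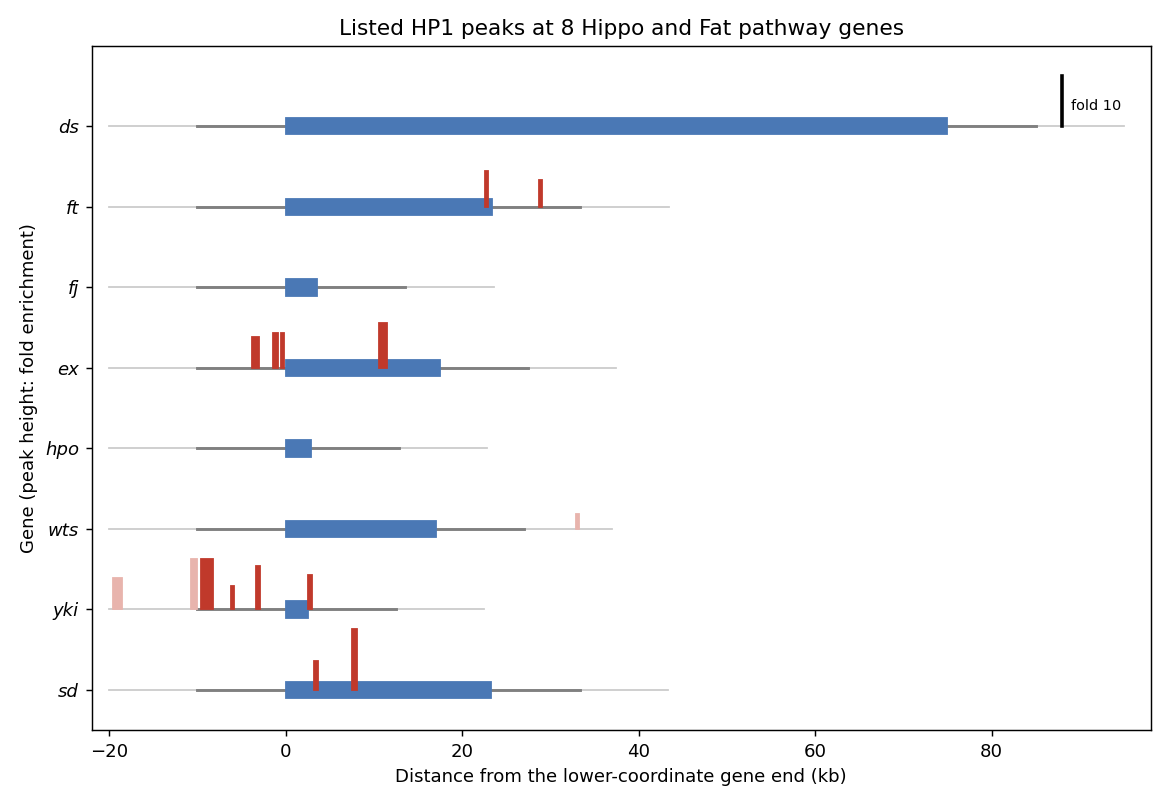
Listed HP1 peaks at the 8 genes, against distance in kb from the lower-coordinate gene end (horizontal axis). Blue bars are gene bodies, dark grey lines the 10 kb flanks, light grey lines flanks of 20 kb, and the height of a red bar is the authors' fold enrichment of that peak, paler where the peak lies beyond 10 kb; narrow peaks are widened so that they can be seen. Peaks cluster below ex and below yki, sit inside sd and near the upper end of ft, and are missing at ds, fj and hpo.

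Among the Fat branch genes, ft was the one cadherin gene with HP1. ft, which encodes the receptor cadherin, spans 23393 bp at 2L 4198404 to 4221796. Its body held 1 HP1 peak of 312 bp, at 4221003 to 4221314, with a fold enrichment of 7.09 and a −log10 q-value of 39.7. Fold enrichment is the caller's ratio of signal to its expectation, and it and the q-value are the authors' values for the whole called peak. The peak lay 482 bp inside the upper end of ft, at 97.3% of the way along the body, and covered 1.33% of it.

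A further HP1 peak stood beyond ft, 5302 bp from its upper end. It measured 344 bp, at 4227098 to 4227441, with a fold enrichment of 5.39. It began 1 bp past the end of CG3702 and ended 258 bp before RpL40, a gene for a ubiquitin fusion protein of the large ribosomal subunit, so by distance it belongs to those neighbours rather than to ft. The lower side of ft, where Naprt ends 333 bp away, had no peak within 10 kb.

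ds and fj, the genes of the ligand cadherin and of the Golgi kinase that modifies both cadherins, had no HP1 peak nearby. ds spans 74971 bp at 2L 640013 to 714983, and is the longest of the 8 genes. Its nearest HP1 peak was 159 kb away, whereas the median arm gene had one within 96.8 kb. fj spans 3551 bp at 2R 18232761 to 18236311, and its nearest HP1 peak was 68.6 kb away. Of arm genes 65.9% had an HP1 peak as near as that of ds, and 40.6% as near as that of fj, so neither distance stands out among arm genes.

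At ex, 3 of the 4 peaks lay before the gene and 1 inside it. ex, the gene of the FERM-domain scaffold that links the membrane to Hippo and Warts, spans 17475 bp at 2L 431227 to 448701. It shared its count of 4 HP1 peaks in the body and flanks with yki, where 0.418% of arm genes had at least as many. At ft and sd there were 2 each, a number that 2.45% of arm genes reached. The peak inside ex was 893 bp wide, at 441787 to 442679, and had a fold enrichment of 8.91 and a −log10 q-value of 66.9. Its middle lay 63.0% of the way along the body, away from either end, and it covered 5.11% of ex.

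The peaks below ex ran up to its edge. The nearest, of 314 bp at 430660 to 430973, ended 254 bp before the lower end of ex. The next, of 623 bp at 429787 to 430409, ended 818 bp before it. These intervals carry the name of 1 call with a fold enrichment of 6.87 and are parts of it, separated by 250 bp that the list leaves out. The outermost, of 879 bp at 427375 to 428253, ended 2974 bp before ex and had a fold enrichment of 6.22. No annotated gene lay under any of these 3 peaks, and the closest other gene, BBS8, was 2054 bp from the outermost. The gene crq overlaps the upper end of ex and had no peak.

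The kinase genes of the core cassette had none. hpo, at 2R 19493996 to 19496856, was 1.08 Mb from the nearest HP1 peak, and 99.9% of arm genes had one as near or nearer. Almost every arm gene was therefore closer to a listed HP1 peak than hpo was. wts, at 3R 30789625 to 30806619, had its nearest HP1 peak 15.9 kb past its upper end, inside cindr, a gene of an adaptor protein. That peak was 161 bp wide with a fold enrichment of 3.05, lower than at any of the 12 peaks within 10 kb of a member.

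At yki, all 4 peaks lay outside the gene, in its crowded surroundings. yki spans 2511 bp at 2R 24065975 to 24068485 and encodes the coactivator that Warts inhibits. One HP1 peak of 401 bp began 58 bp past its upper end, at 24068543 to 24068943, with a fold enrichment of 6.85. The same peak covered the lower end of Gpat4, a gene of glycerolipid synthesis, which begins 272 bp from yki, so the peak cannot be assigned to either gene.

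On the lower side of yki the peaks fell at or between the ends of other genes, with eEF5, RpL12 and RpL39, which encode a translation factor and ribosomal proteins, within 354 bp of them. The peak at 24062572 to 24063031, of 460 bp and a fold enrichment of 8.67, filled the space between Rap2l, 20 bp away, and the ribosomal protein gene RpL39, 141 bp away. The peak at 24059762 to 24060024, of 263 bp and a fold enrichment of 4.6, overlapped lncRNA:CR44814 and stood between eEF5, 279 bp away, and RpL12, 354 bp away. The peak at 24056357 to 24057708, of 1352 bp and a fold enrichment of 10.003, covered the upper ends of CG13563 and ppk29 and stopped 90 bp before eEF5. These peaks were 2944, 5951 and 8267 bp from yki, with other genes between, and are nearer to those genes than to yki.

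The 10 kb limit cut through 1 call at yki. The peak at 8267 bp was the farthest inside the limit, and its other part, of 692 bp at 24055202 to 24055893, lay 10082 bp from yki and just outside. The next peaks outside were at 15.9 kb from wts and 18.6 kb from yki.

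sd, which encodes the DNA-binding partner of Yorkie, was the member with more than 1 HP1 peak in its body and with the strongest peak of the 12. It spans 23313 bp at X 15804370 to 15827682, and its peaks together covered 1100 bp, or 4.72% of the body. The first, of 530 bp at 15807524 to 15808053, lay 3154 bp inside the lower end and had a fold enrichment of 5.69. The second, of 570 bp at 15811866 to 15812435, lay 7496 bp inside and had a fold enrichment of 12.2 and a −log10 q-value of 112. Both lay in the lower part of the body, at 14.7% and 33.4% of its length, and none fell in the flanks.

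Smaller annotated genes lie inside sd. The weaker peak also overlapped lncRNA:CR44384, and the stronger one lay 919 bp from CG8509, a gene nested in sd that had no peak of its own. Among the 612 HP1 peaks of the arms, the stronger sd peak ranked 52 by fold enrichment. The weaker sd peak was below the middle of that list, with 46.7% lower.

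Across the 12 peaks, fold enrichment ran from 4.6 to 12.2 with a median of 6.87, and width from 263 to 1352 bp with a median of 495 bp. The 612 arm HP1 peaks had medians of 6.07 and 359.5 bp. Of the 12 peaks, 9 were above the arm median in fold enrichment and 8 were wider than the arm median. The −log10 q-value ran from 21.3 to 112 with a median of 39.1. Over the 612 arm HP1 peaks its median was 31.3 and its smallest value 5.02. The strongest, in sd, had a higher fold enrichment than 91.5% of arm HP1 peaks, and the widest, below yki, was wider than 95.6% of them.

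**Figure D3:**
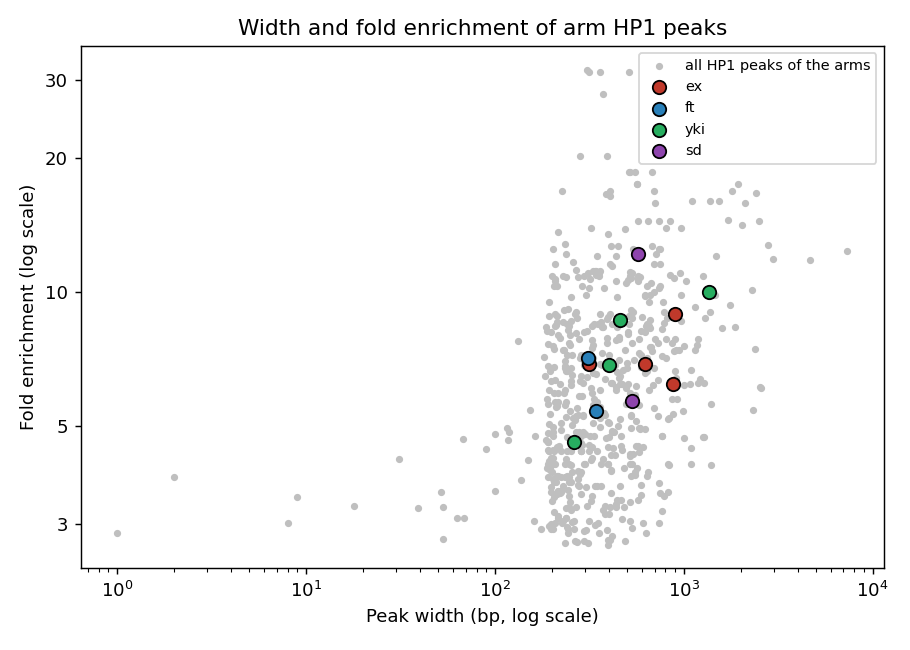
Width (horizontal axis, bp, log scale) and fold enrichment (vertical axis, log scale) of the 612 HP1 peaks of the chromosome arms in grey, with the 12 peaks at ex, ft, yki and sd coloured by gene. The coloured points lie within the main cloud, between 4.6 and 12.2 in fold enrichment.

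Of these 12 peaks, 8 lay within 500 bp of some annotated gene end, where 42.3% of arm HP1 peaks did. The 12 were collected for lying in or near a gene and the arm peaks were not, so nothing is read from the difference. All 4 peaks at yki and both at ft were among the 8, with 1 of the 4 at ex, the nearest to the gene, and the weaker sd peak, which touched the end of lncRNA:CR44384. The interior ex peak was 1683 bp from the closest gene end, that of lncRNA:CR43717, and the stronger sd peak 919 bp. The yki and ft surroundings thus supplied mostly peaks at gene ends, whereas the strongest peaks of ex and sd lay inside the gene.

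Calls are numbered in the peak names in order of position, running on from one chromosome to the next, and most numbered calls are not in the deposited list. At ex the listed calls 56, 57 and 58 followed each other, at yki 3258 to 3261, and at ft 237 and 238. At sd the list jumped from 8117 to 8119, so 1 call between the listed peaks was left out. Of the 7 steps between neighbouring listed calls at these genes 6 were to the next number. Over the arms 16.8% of steps were, but those join neighbours at any distance, whereas the steps here join calls within 1 gene and its flanks, so nothing is read from the difference. What the authors removed calls for is not given in the sources used here. In 9 of the 12 peaks the recorded summit offset exceeded the width of the listed interval, as in 77.9% of arm HP1 peaks, so these intervals are parts of larger calls and the place of the summit is uncertain.

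No H3K9me3 peak lay in or within 10 kb of any of the 8 genes, where 0.249% of arm genes held one in the body and 1.25% had one within 10 kb. At such shares 8 genes could hardly show a lack. The nearest H3K9me3 peak was 119 kb from yki, the closest, followed by sd at 1.42 Mb, hpo at 2.05 Mb and fj at 3.31 Mb. It was 6.01 Mb from ft, 9.18 Mb from wts, 9.52 Mb from ds and 9.78 Mb from ex. The median arm gene was 1.53 Mb from one, so 6 of the 8 genes were farther than that.

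**Figure D4:**
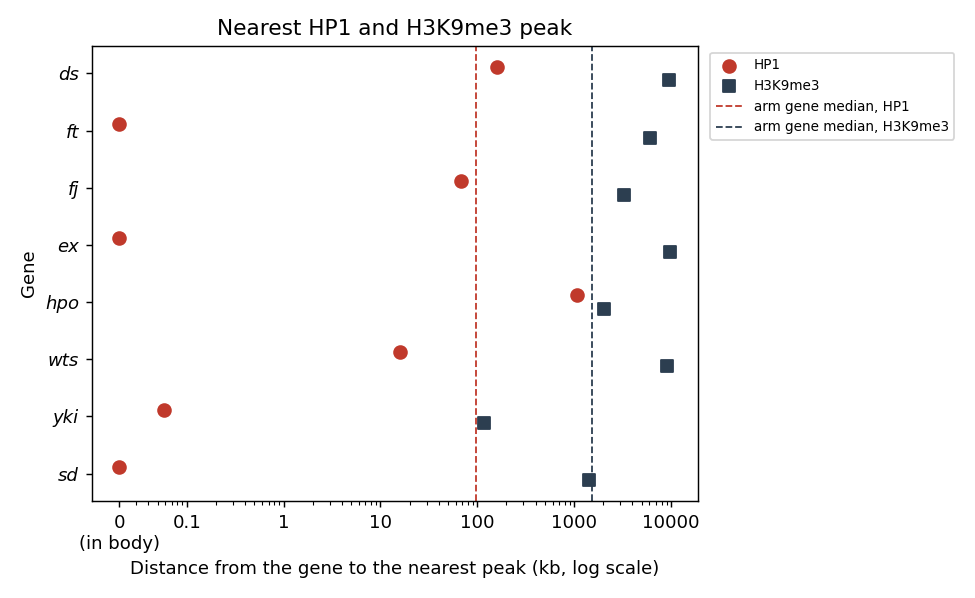
Distance in kb (horizontal axis, log scale, with 0 for a peak in the body) from each gene to the nearest HP1 peak (red circles) and H3K9me3 peak (dark squares), with the medians over arm protein-coding genes as dashed lines. HP1 lay in the body of ft, ex and sd and 0.058 kb from yki, while the nearest H3K9me3 peak was never closer than 119 kb.

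None of the 12 HP1 peaks touched an H3K9me3 peak, as was the case for most HP1 peaks of the arms, of which 6.86% did. Since the HP1 peaks are named ywdf and most H3K9me3 peaks HWT, the lists mostly come from different discs, and a missing H3K9me3 peak is not a measured absence of the mark. No background region lay within 10 kb of the 8 genes either, where 3.17% of arm genes had one, and the nearest was 133 kb from ds. Of the HP1 peaks of the arms 2.45% touched a background region.

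The genes with a body closest to the members in coverage were found among arm genes of 0.5 to 2 times their length that held HP1, by the difference in percent of the body covered. For ex these were CG42507 (5.05%), aop (5.31%) and sws (4.90%), among 125 genes. For sd they were CG8170 (4.69%), the Notch ligand gene Delta (4.62%) and ex itself, among 117. For ft they were ogre (1.34%), twin (1.34%) and fwd (1.32%), also among 117. Within the 338 arm genes that held HP1 in the body, ex ranked 108, sd 117 and ft 240 by this share, counted from the largest. At each of these members HP1 covered at most 5.11% of the body.

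The wider pathway was read from a list of 43 genes, 35 of them besides the 8 above. Of those 35, 7 had HP1 in the body and 8 in the body or within 10 kb, and 1, Zyx on chromosome 4, had H3K9me3. Of the 34 on the arms, 6 had HP1 in the body and 7 in the body or within 10 kb, where 2.48% and 10.7% of all arm genes did. None of these 34 had H3K9me3 within 10 kb, where 1.25% of arm genes did. The median length of the 35 was 10.1 kb, against 2.14 kb for arm genes, and the part of length in these counts was not tested. Of the 10 that were 20 kb or longer 3 held HP1 in the body, where 13.2% of arm genes of that length did.

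Of the genes grouped here as upstream and Fat branch, and outside the 8, kibra alone held HP1. This gene, whose product works with Merlin and Expanded, had 1 peak of 570 bp at 3R 14723954 to 14724523, with 308 bp in the body. The fold enrichment of that peak was 3.39, lower than at any peak of the members. No HP1 peak lay in or within 10 kb of Mer, crb, ed, dachs, app, Dlish, lft, dco or Fbxl7.

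Among the core regulators 2 of 12 genes held HP1, Pez and Zyx. On the arms it was 1 of 11, where 2.48% of all arm genes held HP1 in the body. Pez, a phosphatase gene that acts with kibra, had 1 peak of 831 bp with a fold enrichment of 4.09. Only 207 bp of that peak lay in Pez. The peak also overlapped Cpr and cannot be assigned to either gene. Zyx, the zyxin gene of the Fat branch, was grouped here with the core regulators. It was the one list gene on chromosome 4, a largely heterochromatic chromosome. It had 52.3% of its body under 3 HP1 peaks of fold enrichment up to 10.4, and was the one list gene with H3K9me3. Tao, sav, mats, jub, Rassf, Strip, Cka and Schip1 had neither within 10 kb.

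The nuclear factors had HP1 in 3 of 8 bodies, those of sd, Tgi and hth, where 2.48% of all arm genes did. Their median length was 15.4 kb, against 2.14 kb for arm genes, and the part of length was not tested. Besides these, yki had HP1 in the flank. Tgi encodes a protein that competes with Yorkie for Scalloped and represses its targets. Its body, of 15696 bp, held 3 HP1 peaks of fold enrichment 3.01, 4.09 and 11.6, which covered 7.32% of it. The strongest, of 405 bp at 3L 13499436 to 13499840, came close to the 12.2 of the strongest sd peak. The genes of Scalloped and of its corepressor each held HP1 peaks of unequal strength, none of which touched H3K9me3. The same held for the target gene E2f1, with fold enrichments from 4.81 to 10.9. Only 6.86% of arm HP1 peaks touched H3K9me3, so neither trait sets this pair apart. hth, a homeodomain gene of 132 kb, had 0.278% of its body covered, and Wbp2, mask, tsh and vg had no peak within 10 kb.

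Of 9 target genes of Yorkie, Diap1 and E2f1 held HP1 in the body and dally in the flank. Over all arm genes the shares were 2.48% in the body and 10.7% in the body or within 10 kb. No difference between the groups of the list was tested. Diap1, the inhibitor of apoptosis, had 1 peak of 251 bp at 3L 16043564 to 16043814 with a fold enrichment of 8.01. E2f1, a cell cycle transcription factor gene, had 4 peaks of fold enrichment up to 10.9, of which 3 carry the same value and lie within 21649385 to 21651745 on 3R. dally, a glypican gene, had its nearest peak 4.48 kb away, and the stronger of its 2 flanking peaks had a fold enrichment of 12.2. CycE, Myc, dlp, Ser and wg had none within 10 kb.

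The bantam microRNA gene, a growth target of Yorkie, lay 13.7 kb from an HP1 peak, beyond the limit. That peak, chosen here after its values were seen, spanned 633 bp at 3L 627915 to 628547 with a fold enrichment of 8.41. It reached 113 bp into lncRNA:CR43334, listed in the gene table under the further name pri-bantam, at the lower end of that gene. It also contained an H3K9me3 peak of 86 bp, at 628005 to 628090, with a fold enrichment of 7.41 and an HWT name. The H3K9me3 peak itself ended before lncRNA:CR43334 begins, at 628435. The lists thus overlapped near bantam but beyond the 10 kb limit, whereas at Zyx they overlapped within it. E2f1 also had an H3K9me3 peak just beyond the limit, 11.4 kb away, nearer than the 14.1 kb of bantam.

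Other wing signalling pathways had HP1 at some of their genes as well. HP1 lay in the body of 3 of 9 Hedgehog, 5 of 13 Wingless and 2 of 12 EGFR pathway genes, and of 10 of the 43 genes of the Hippo list. Without the genes on chromosome 4 the counts were 2 of 8, 3 of 11, 2 of 12 and 9 of 42, where 2.48% of all arm genes held HP1. With the 10 kb flanks, still without chromosome 4, they were 3, 4, 4 and 11, where 10.7% of arm genes had HP1. The lists differ in gene length and share wg, and no difference between them was tested.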

How the data were processed

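Peak lists of the whole series were used, with no column of single libraries. Per the submitters' processing notes, the build was dm6, and MACS2 2.1.2, bedtools 2.26, SAMtools 1.10 and Bowtie2 2.3.4.1 were used. The names of HP1 and H3K9me3 peaks carry trim, q30 and dupsKept, and those of the background regions q5 and dupsRemoved. The deposited fold enrichment is a ratio given by the authors per call, beside the deposited −log10 q-value. The deposited score equals 10 times the −log10 q-value, rounded down, and the summit offset counts bases from the start of the call.

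Gene positions came from RefSeq, on the Release 6 assembly that is also called dm6. All 43 names of the pathway list matched. A peak counted if it overlapped by at least 1 bp. The arms are 2L, 2R, 3L, 3R and X without 1.5, 5.4, 5.1, 4.6 and 0.9 Mb next to the centromere. The interval functions gave the right answer in 200 of 200 simulated cases. Genes named are the 8 members, the list genes, neighbours of their peaks and the 3 genes closest in covered share. Members and lists were chosen with earlier results of these data known, and no test was run. Python 3.11.15 and pandas 2.3.3 were used. No sequence was used here.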

Additional observations from a re-analysis of the deposited data

How the results depend on the processing

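No paired analysis was possible because the lists carry no values of single replicates, so no replicate could be left out either, and depth per library is unknown. The count of members with HP1 in the body stayed at 3 with at least 50% of the peak inside, by the middle base of the peak, with a −log10 q-value of at least 10 and without peaks that touch a background region. None of these settings could lower it. Every listed body interval lay wholly inside its gene, had a −log10 q-value of at least 26.8 and touched no background region. In 3 of these 4 intervals, those of ft and sd, the summit offset exceeded the width. The extent of their full calls is not listed, so these checks hold for the listed intervals only. With flanks of 5 kb and 20 kb, 4 and 5 members had an HP1 peak, and the peaks numbered 9 and 15. Joining parts of 1 call left 11 of the 12 peaks. No H3K9me3 peak lay within 50 kb, since the nearest was 119 kb away. The share of arm genes with HP1 in the body, 2.48%, was 2.11% with at least 50% of the peak inside, 2.17% with the stricter q-value and 13.2% among genes of at least 20 kb. The covered shares of ex, ft and sd were the same with the stricter q-value, which none of their peaks failed. The counts of the wider pathway list were not repeated with these settings.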
